A study of Mus musculus with 18 samples.

Results

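The Rab small GTPases, a gene family of membrane traffic, were examined in mouse whole brain across 3 genotypes. Members were the genes whose array symbol consists of Rab, a number and at most 2 trailing letters, each read by the probe set with the highest mean over all 18 arrays. The rule found 63 genes among the 18193 named on the array, and 59 of them are Rab GTPases. The other 4 carry a matching name only. Rab10os and Rab26os are transcripts from the opposite strand, Rab3ip is an exchange factor and Rab5if is a Rab5-interacting factor. All counts below are over the GTPases unless stated. A level filter left 50 of the 59 for testing. Rab17, Rab19, Rab20, Rab25, Rab32, Rab39, Rab42, Rab44 and Rab7b lay below it and were not tested, as did Rab26os.

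Whole brains came from 8-week-old C57BL/6 mice of both sexes. The groups were ERalphaKO (labelled as lacking estrogen receptor alpha, gene Esr1), ERbetaKO (labelled as lacking estrogen receptor beta, gene Esr2) and wild type (WT), each with 3 female and 3 male arrays. The targeted alleles and the cells in which they act are not given in the sources used here. Whether the arrays of a group stand for different animals is not stated in the labels, and p-values therefore cover only array-to-array spread, which may be technical. Values are linear probe set signals that had been scaled to a common trimmed mean per array. They were compared as log2(signal + 63.63) with limma, and a gene was called at a Benjamini-Hochberg adjusted p under 0.05 over all 13072 genes tested. Signals of different probe sets are not set against each other, since probes differ in how well they hybridise.

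Rab proteins are molecular switches that mark membranes. An exchange factor loads a Rab with GTP, the active Rab recruits effectors such as tethers and motor adaptors, and a GTPase-activating protein with a TBC domain ends the active state. GDP-bound Rabs are taken off membranes by GDP dissociation inhibitors through their prenyl tails, and each Rab works at particular organelles. In neurons, Rab3 and Rab27 proteins act on synaptic and dense-core vesicles, while others serve endosomes, lysosomes, the Golgi and the cilium.

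The labels and the tissue were checked first. The Esr2 probe set read 271 ± 98 in ERbetaKO-labelled arrays against 28.7 ± 11.4 in WT (SD, n = 6 each, two-sided exact permutation p = 0.00217), which runs against the label. The brightest Esr1 probe set read 129 ± 21.6 in ERalphaKO-labelled arrays against 143 ± 35.9 in WT. Where these probe sets lie relative to the disrupted parts is not known here. Both knockout groups are therefore named with the word labelled, since each direction depends on the labels being right. Pcp2, a gene of cerebellar Purkinje cells, was at 500 or less on 2 ERalphaKO-labelled, 3 ERbetaKO-labelled and 2 WT arrays and above it on the other 11, so the arrays differ in how much cerebellum they read. The 4 pituitary markers (Gh, Prl, Cga and Pomc) also varied widely within each genotype. Their sums ran from 401.6 to 41490 in ERalphaKO-labelled, 489.9 to 33810 in ERbetaKO-labelled and 476.9 to 35420 in WT arrays. The part of pituitary in the Rab differences was not tested. The Actb 3' over 5' ratio, a sign of RNA quality, was 1.28 ± 0.0786 in ERalphaKO-labelled, 1.48 ± 0.182 in ERbetaKO-labelled and 1.20 ± 0.0209 in WT arrays (exact permutation p = 0.0411 and 0.00217 against WT). The Gapdh 3' over 5' ratio was 0.758 ± 0.0125 in ERalphaKO-labelled, 0.756 ± 0.0179 in ERbetaKO-labelled and 0.769 ± 0.0213 in WT arrays. Its ranges overlapped (exact permutation p = 0.310 and 0.294 against WT). In the bulk tissue, fewer cells of a type and less RNA per cell cannot be told apart.

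In ERalphaKO-labelled brains, 4 Rab genes fell and 1 rose against WT, where 3.63% of all genes tested fell and 3.07% rose. The falls were in Rab22a and Rab3d, which serve endosomes and secretory granules, and in Rab24 and Rab1b, of autophagy and early secretory transport. Rab23, a negative regulator of hedgehog signalling in development, rose. These 5 are 10% of the 50 tested, against a background of 6.7% of all genes tested. The median log2 difference was -0.04 over the Rab genes and -0.03 over all genes, and 34 of the 50 Rab differences were below 0 (68%, against 56.1% of all genes). At an unadjusted p under 0.05 there were 15 of 50 (30%, against 23.3% of all genes). Beside these, 2 of the cell type markers checked were called, both lower. Cldn5 of endothelium differed by -0.40 (adjusted p = 0.00583) and C1qa of microglia by -0.53 (adjusted p = 0.0201). The 3 endothelial markers summed to 1704 to 2109 in ERalphaKO-labelled arrays against 2232 to 2633 in WT, without overlap, and the 3 microglial markers to 4770 to 6231 against 5046 to 7849 in WT. Cldn5 is the brightest of the endothelial probe sets and weighs most in that sum. Pecam1 (-0.08) and Flt1 (-0.20) of endothelium and Cx3cr1 (0.12) and Csf1r (-0.17) of microglia were not called. The markers of neurons, astrocytes, oligodendrocytes, cerebellum, pituitary and thalamus had 0 calls. The 2 oligodendrocyte markers on the array nevertheless summed to 13080 to 15770 against 16140 to 23660 in WT, without overlap. Mbp, the brighter, differed by -0.35 (limma adjusted p = 0.106) and Mog by 0.21 (adjusted p = 0.447). The part of these markers in the Rab differences was not tested.

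Rab22a, which acts in sorting and recycling at early endosomes, read 668 to 882 in ERalphaKO-labelled arrays (median 779.5) against 905 to 1163 in WT (median 1060). Every ERalphaKO-labelled array lay below every WT array. The difference was -0.42 ± 0.09 (log2, SE) and was past the threshold (limma adjusted p = 0.0180). It was -0.46 in females and -0.37 in males. Leaving out any single array kept the call, with adjusted p between 0.0181 and 0.0475, but on the arrays with Pcp2 above 500 it was -0.36 with an adjusted p of 0.0789. The 3 other probe sets of Rab22a gave -0.12, -0.15 and -0.20, below 0 like the brightest, with none past the threshold.

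Rab3d, a Rab3 protein of regulated secretion best known from secretory granules outside the brain, read 211 to 293 in ERalphaKO-labelled arrays (median 264.5). The WT arrays read 309 to 373 (median 339), so the groups did not overlap. The difference was -0.32 ± 0.09 (adjusted p = 0.0373). A second probe set gave -0.30 ± 0.10 with an adjusted p of 0.0679 over all named probe sets, while 2 dimmer ones below the filter gave 0.32 and 0.08. With all probe sets averaged the difference was -0.06 (adjusted p = 0.763). Without 1 array the adjusted p lay between 0.0378 and 0.0829, and the call held only when WT female 2 or ERalphaKO-labelled male 2 was the array left out.

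Rab1b, which drives transport between the endoplasmic reticulum and the Golgi, read 1885 to 2053 in ERalphaKO-labelled arrays (median 1987) against 2134 to 2535 in WT (median 2349). Its groups did not overlap either, although the difference was small at -0.22 ± 0.06 (adjusted p = 0.0469). Only leaving out WT male 2 kept this call, and the adjusted p without 1 array reached 0.105. Rab24, an atypical Rab linked to autophagy, read 1313 to 1599 (median 1487) in ERalphaKO-labelled arrays against 1467 to 1890 (median 1836) in WT. These ranges overlapped, and the difference of -0.24 ± 0.07 had an adjusted p of 0.0422. It lost its call without any 1 array except WT female 2 or ERalphaKO-labelled female 2 (adjusted p 0.0399 to 0.0969). It was -0.09 in females and -0.38 in males. The calls of Rab1b and Rab24 were each also lost in 6 of the 15 other settings tried.

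Rab23 read 685 to 874 in ERalphaKO-labelled arrays (median 818) against 519.7 to 723 in WT (median 677). The groups overlapped through the lowest ERalphaKO-labelled array. The difference was 0.27 ± 0.08 (adjusted p = 0.0447), and both other probe sets above the filter were above 0 as well, at 0.31 and 0.08. The call was kept only without WT female 1, WT female 2 or ERalphaKO-labelled male 3, with adjusted p from 0.0236 to 0.106. It was lost in 8 of the 15 other settings tried, averaged probe sets among them, with values of 0.22 to 0.30 and adjusted p up to 0.172 over the 15. Over the 50 Rab genes the values of 3 (Rab22a, Rab3d and Rab1b) did not overlap with WT, 6% against 4.65% of all genes.

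**Figure D1:**
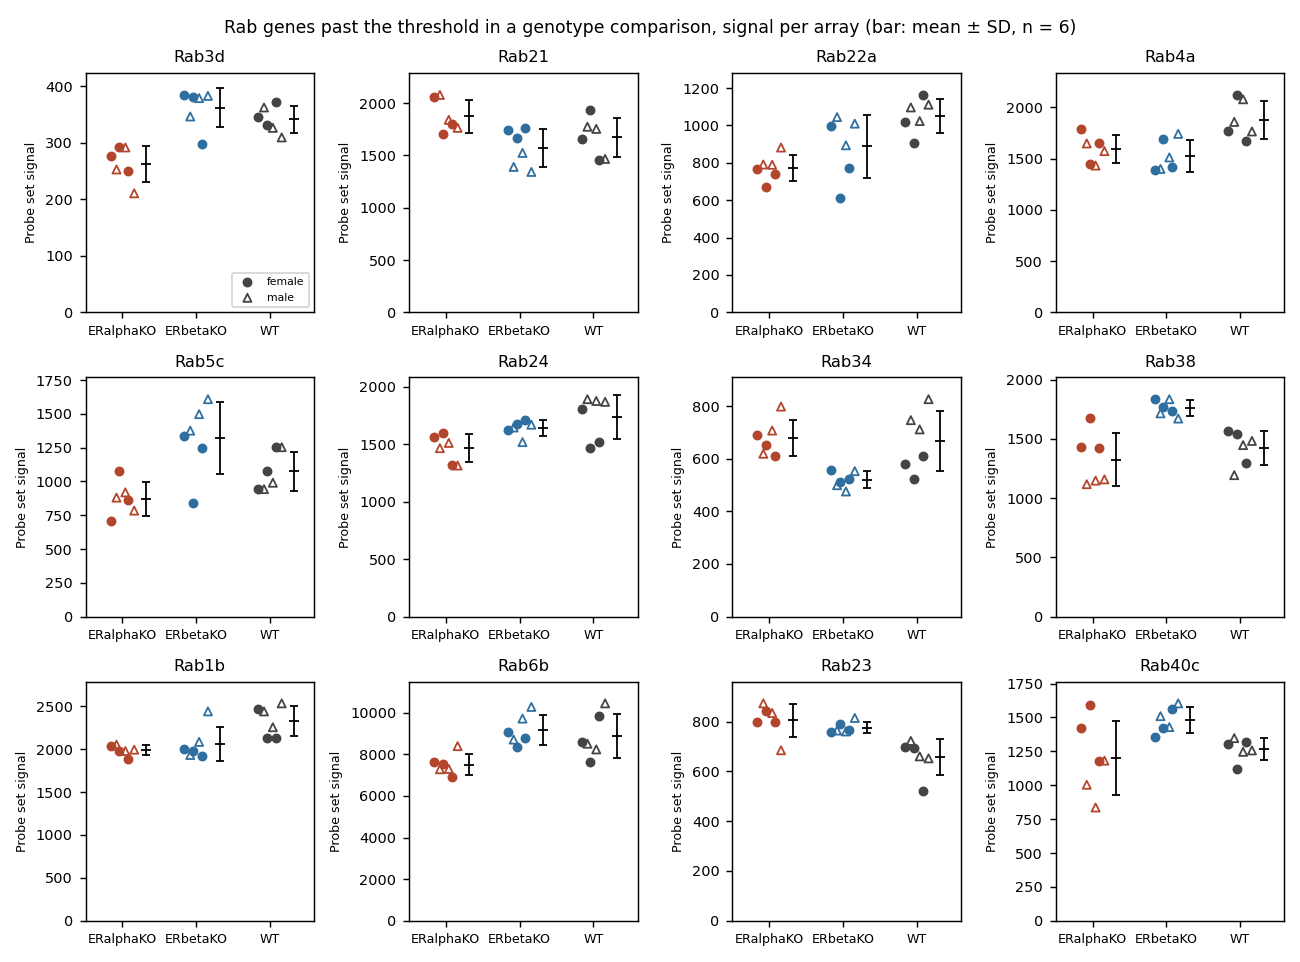
Probe set signal per array (linear axes from 0) of the 12 Rab genes called in any of the 3 genotype comparisons, by labelled genotype, with females as filled circles, males as open triangles, and a bar for the mean ± SD of 6 arrays. All Rab22a, Rab3d and Rab1b values of ERalphaKO-labelled brains lie below the WT values, and all Rab38 values of ERbetaKO-labelled brains lie above them.

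The sequence before the start of 3 of these genes is shown because Rab22a had the lowest difference, Rab23 was the only gene called higher and Rab3d was called in 2 comparisons. Each is the 250 bases before the first listed start in RefSeq GRCm38.p6, read 5′ to 3′ on the gene's strand. Rab23 has 2 listed starts, and only the first was read. Capitals mark GGTCA, the single arm of the estrogen response element, and GGGCGG, the Sp1 GC box, each on either strand (TGACC and CCGCCC on the other). Rab22a lies on the plus strand at chr2:173659595-173659844, Rab23 on the plus strand at chr1:33719646-33719895 and Rab3d on the minus strand at chr9:21918184-21918433.
Rab22a: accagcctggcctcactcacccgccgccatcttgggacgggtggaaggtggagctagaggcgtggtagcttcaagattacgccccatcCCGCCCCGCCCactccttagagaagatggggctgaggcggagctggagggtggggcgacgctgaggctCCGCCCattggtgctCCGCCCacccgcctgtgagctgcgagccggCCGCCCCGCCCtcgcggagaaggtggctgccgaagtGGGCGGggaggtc
Rab23: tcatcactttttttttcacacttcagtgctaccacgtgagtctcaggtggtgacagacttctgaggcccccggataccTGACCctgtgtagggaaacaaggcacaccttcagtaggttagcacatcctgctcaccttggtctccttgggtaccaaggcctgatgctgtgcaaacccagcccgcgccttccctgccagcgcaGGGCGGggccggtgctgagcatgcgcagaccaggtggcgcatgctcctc
Rab3d: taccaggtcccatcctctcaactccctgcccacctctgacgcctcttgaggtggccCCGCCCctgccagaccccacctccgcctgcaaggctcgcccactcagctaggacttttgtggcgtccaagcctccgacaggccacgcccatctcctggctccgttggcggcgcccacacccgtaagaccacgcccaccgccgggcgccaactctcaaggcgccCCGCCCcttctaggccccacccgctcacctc
The Rab22a window holds 7 GC boxes and no GGTCA, the Rab23 window 1 of each, and the Rab3d window 2 GC boxes and no GGTCA.

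A window was listed for 48 of the 59 GTPases, including 10 of the 12 called in any comparison. Every gene was read at its first listed start only. Rab38 and Rab4a are named only. The full palindrome GGTCANNNTGACC, the estrogen response element, was in 0 of the 48, against 0.0629% of all 27025 listed windows of the same length and 0.0095% of the tested genes'. Its single arm GGTCA, which the palindrome also holds, was in 13 (27.1%, against 34.9% of all windows and 32.8% of the tested genes'). The GC box GGGCGG was in 33 (68.8%), against 32.9% of all windows and 57.3% of those of the genes tested. Among the other motifs sought on both strands, the cyclic AMP response element TGACGTCA was in 2 windows (4.17%, against 1.62% of all windows and 2.55% of the tested genes'). The AP-1 site TGANTCA was in 1, that of Rab34 (2.08%, against 6.87% and 4.33%), and CACGTG, the E-box of lysosomal genes, was in 4 (8.33%, against 6.05% and 8.17%). These matches describe letters in the windows and nothing else.

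The synaptic and secretory group held 8 tested genes, of which Rab3d alone was called in ERalphaKO-labelled brains. Rab3a, the main Rab of synaptic vesicles, read 6534 to 7791 in ERalphaKO-labelled arrays (median 7251) against 7188 to 10720 in WT (median 8036). The difference of -0.22 ± 0.09 was not past the threshold (adjusted p = 0.172). Its second probe set gave -0.29 ± 0.09, which was past it over all named probe sets (adjusted p = 0.0445). Rab3c, a close relative of Rab3a on the same vesicles, differed by 0.03 ± 0.11, and Rab27b, of dense-core and secretory granules, by -0.01 ± 0.13. Rab3b, another Rab3 of synaptic vesicles, differed by -0.08 ± 0.28 and varied widely within groups. The neuron markers Snap25, Syt1 and Rbfox3 summed to 23450 to 35000 in ERalphaKO-labelled arrays against 32490 to 44800 in WT, with a median log2 difference of -0.37 and 0 of 3 called. Their part in the Rab differences was not tested.

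In the early endosome group Rab22a was the only call among 8. Rab5a, the organiser of early endosome fusion, differed by 0.08 ± 0.07 (adjusted p = 0.490). Rab5c, its paralogue, differed by -0.29 ± 0.12 (adjusted p = 0.156), and Rab4a, of fast recycling, by -0.23 ± 0.08 (adjusted p = 0.101). Of the 9 recycling genes 0 were called and 3 had an unadjusted p under 0.05, the share over all genes being 23.3%. Rab8a, which delivers cargo to the plasma membrane and cilium, differed by -0.14 ± 0.05 (adjusted p = 0.126). Rab11a, the main Rab of recycling endosomes, differed by 0.03 ± 0.06, and its brain-rich paralogue Rab11b by -0.19 ± 0.06 (adjusted p = 0.0864). The median of the group was -0.12.

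Rab7, of late endosomes and lysosomes, differed by -0.10 ± 0.07 (adjusted p = 0.400) in a group of 10 in which only Rab24 was called. In the endoplasmic reticulum and Golgi group, Rab1b was the only call of 11. Its paralogue Rab1a differed by 0.01 ± 0.07 and Rab6a, of retrograde Golgi transport, by -0.02 ± 0.09. Rab43 gave the highest difference of the family, 0.59 ± 0.21, without passing the threshold (adjusted p = 0.0994). Its WT values ran from 59.1 to 441, against 424 to 518 in ERalphaKO-labelled arrays. The width of the WT range came from WT female 2, which read 59.1 where the next WT array read 337. Rab23 was the only call of 4 in the cilium and ubiquitin ligase group.

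**Figure D2:**
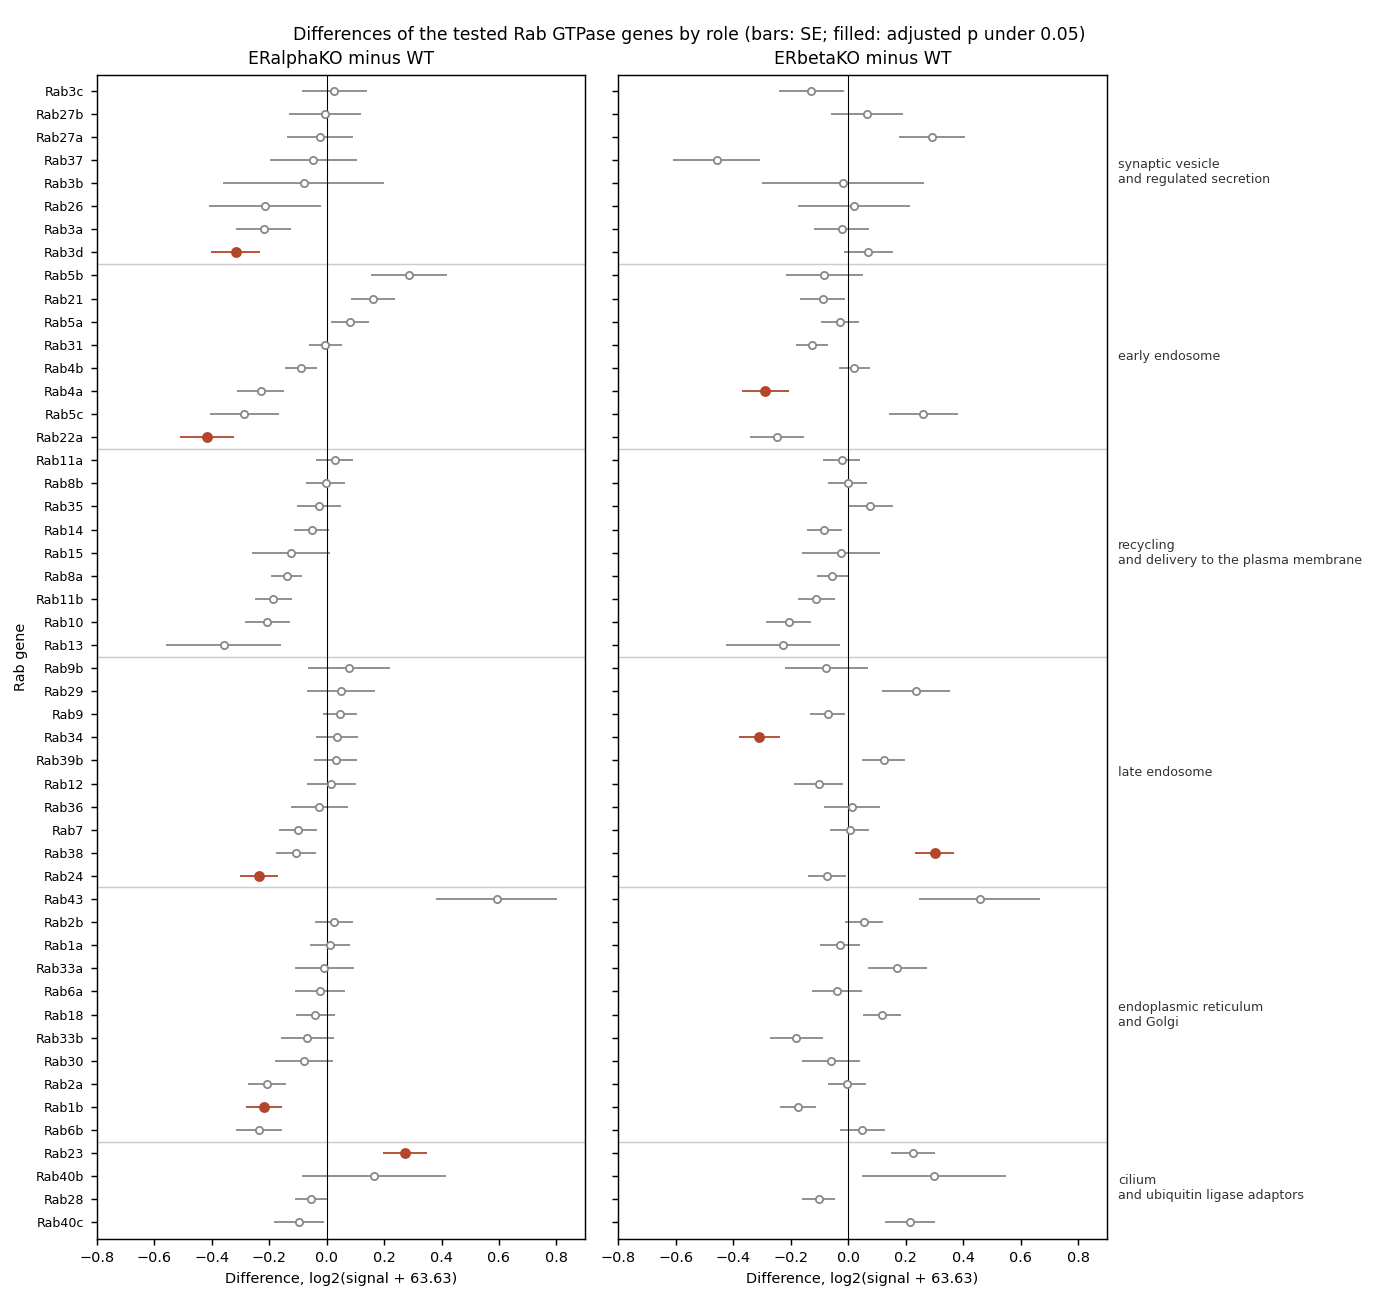
Difference from WT on the log2(signal + 63.63) scale (x axes) for each of the 50 tested Rab GTPase genes (y axis), with ERalphaKO-labelled brains on the left and ERbetaKO-labelled brains on the right, grouped by role. Points are limma estimates, bars are their SE, and filled points passed an adjusted p of 0.05, 5 on the left and 3 on the right.

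In ERbetaKO-labelled brains 3 Rab genes were called against WT. Rab38, a Rab of lysosome-related organelles known from pigment cells, rose, while Rab34, a Golgi Rab of lysosome positioning and ciliogenesis, and Rab4a fell. These are 6% of 50, against 7.5% of all genes tested, of which 2.91% rose and 4.58% fell. Medians were -0.02 over the Rab genes and 0.01 over all genes, and 13 of 50 had an unadjusted p under 0.05 (26%, against 25.4% of all genes). Markers of other cells were lower beside them. Gfap of astrocytes differed by -1.23 (adjusted p = 1.84e-04), Cx3cr1 of microglia by -0.52 (adjusted p = 0.0275) and Cldn5 by -0.39 (adjusted p = 0.00580). The 3 astrocyte markers summed to 3680 to 6240 in ERbetaKO-labelled arrays against 6486 to 8643 in WT, and the 3 endothelial markers to 1807 to 2182 against 2232 to 2633 in WT, both without overlap. The microglial sums of 4541 to 6620 overlapped the WT sums, and the other lists had 0 calls. Not called were Aldh1l1 (-0.27) and Aqp4 (-0.53) of astrocytes, C1qa (-0.38) and Csf1r (-0.01) of microglia, and Pecam1 (-0.05) and Flt1 (-0.13) of endothelium. The part of the markers in the Rab differences was not tested. This comparison uses the WT arrays that the previous one used.

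Rab38 read 1671 to 1834 in ERbetaKO-labelled arrays (median 1750) against 1193 to 1569 in WT (median 1464). All 6 ERbetaKO-labelled values lay above the WT values. The difference was 0.30 ± 0.07 (adjusted p = 0.0171) and kept its call without any single array. It was 0.20 with an adjusted p of 0.0976 after median centring. In all, the call was lost in 4 of the 15 other settings tried, averaged probe sets among them. Its dimmer probe set gave 0.27 ± 0.15, short of the threshold (adjusted p = 0.254 over all named probe sets).

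Rab34 read 476 to 558 in ERbetaKO-labelled arrays (median 518) against 523 to 827 in WT (median 661). Only the lowest WT array reached into the ERbetaKO-labelled range. The difference was -0.31 ± 0.07 (adjusted p = 0.0187), and the call held without any single array. A second probe set fell by 0.40 on the log2 scale (adjusted p = 0.0320 over all named probe sets). The difference was -0.09 in females and -0.53 in males. The interaction of sex and genotype had an unadjusted p of 0.00819 and an adjusted p of 1.00, so a difference between the sexes did not pass the correction.

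Rab4a read 1393 to 1742 in ERbetaKO-labelled arrays (median 1466) against 1671 to 2122 in WT (median 1815). The ranges overlapped at their ends. The brightest probe set gave -0.29 ± 0.08 (adjusted p = 0.0429) and the second -0.37 ± 0.08 (adjusted p = 0.0154 over all named probe sets). The first lost its call without any 1 of 8 of the 12 arrays, and kept it without WT female 3, WT male 3, ERbetaKO-labelled female 2 or ERbetaKO-labelled male 3 (adjusted p 0.0292 to 0.107). The call of the brightest Rab4a probe set was also lost in 7 of the 15 other settings tried. Rab22a, called in the other knockout line, differed here by -0.25 ± 0.09 (adjusted p = 0.118) and Rab23 by 0.22 ± 0.08 (adjusted p = 0.0817).

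Values of 3 Rab genes did not overlap with WT in ERbetaKO-labelled brains, Rab38, Rab23 and Rab40c, all above it. That is 6% of the 50, against 4.06% of all genes. With the Actb ratio as a covariate 0 Rab genes were called against WT here and 2 in ERalphaKO-labelled brains. That ratio ran from 1.34 to 1.84 in ERbetaKO-labelled arrays and from 1.17 to 1.23 in WT, without overlap. What the Actb ratio reads and labelled genotype therefore cannot be told apart between ERbetaKO-labelled and WT arrays. The Gapdh ratio, given above, overlapped between them. On the arrays with Pcp2 above 500 Rab38, Rab34 and Rab4a were no longer called in ERbetaKO-labelled brains, and Rab5c was at 0.52. Female 1 is the only ERbetaKO-labelled female among these arrays and carries the female part of that average alone. In ERalphaKO-labelled brains 0 Rab genes were called on these arrays. These fits hold fewer arrays or 1 more term. The share of all genes called in them is not given here, so these counts do not show whether Rab genes lost calls more than other genes. The synaptic Rabs stayed short of the threshold, with Rab3a at -0.02 ± 0.09, Rab3c at -0.13 ± 0.11, Rab3b at -0.02 ± 0.28, Rab3d at 0.07 ± 0.09 and Rab27b at 0.07 ± 0.13. So did the brightest probe sets of Rab1a, Rab5a, Rab6a, Rab7, Rab8a, Rab11a and Rab11b, which lay between -0.11 and 0.01. A dimmer Rab6a probe set was called higher, at 0.32 ± 0.09 (limma adjusted p = 0.0433 over all named probe sets).

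The comparison of both knockout lines with each other uses no WT array, and 7 Rab genes were called, 14% against 15.4% of all genes. Rab34 and Rab21 were higher in ERalphaKO-labelled brains and Rab38, Rab5c, Rab3d, Rab40c and Rab6b were lower. Of all genes, 6.27% were higher and 9.11% lower. The median was -0.05 over the Rab genes and -0.02 over all genes. Rab34 was above (0.35 ± 0.07, adjusted p = 0.00761) and Rab3d below (-0.39 ± 0.09, adjusted p = 0.00943) without overlap, 4% of the 50 against 5.85% of all genes. With averaged probe sets Rab3d was at -0.05 (adjusted p = 0.744), and its call was also lost with the Actb ratio as a covariate. Rab34 lost its call with that covariate and on the arrays with Pcp2 above 500 (0.26, adjusted p = 0.132).

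Rab38 read 1117 to 1674 in ERalphaKO-labelled arrays (median 1289) against 1671 to 1834 in ERbetaKO-labelled arrays (median 1750). Only the highest ERalphaKO-labelled array reached the ERbetaKO-labelled range. The difference was -0.41 ± 0.07 (adjusted p = 0.00296), and the second probe set gave -0.49 ± 0.15 (adjusted p = 0.0337 over all named probe sets). Rab5c read 705 to 1077 in ERalphaKO-labelled arrays (median 872) against 840 to 1610 in ERbetaKO-labelled arrays (median 1358). The ranges overlapped through the lowest ERbetaKO-labelled array. It had the lowest difference of the family, -0.55 ± 0.12 (adjusted p = 0.00903). The calls of Rab38 and Rab5c held under all 15 other settings tried and without any single array.

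Rab21, which carries integrins into early endosomes, read 1707 to 2079 in ERalphaKO-labelled arrays (median 1821) against 1343 to 1759 in ERbetaKO-labelled arrays (median 1595), with some overlap. Its difference of 0.25 ± 0.08 (adjusted p = 0.0391) was kept only without ERalphaKO-labelled female 2, ERalphaKO-labelled male 3 or ERbetaKO-labelled male 2, and its second probe set was at -0.09. Rab40c, an adaptor of a cullin ubiquitin ligase, read 836 to 1589 in ERalphaKO-labelled arrays (median 1182) against 1353 to 1604 in ERbetaKO-labelled arrays (median 1470), again overlapping. The difference was -0.31 ± 0.09 (adjusted p = 0.0242), with the call lost without ERalphaKO-labelled female 3 or male 2 or ERbetaKO-labelled female 3 or male 3 (up to 0.0662), and the second probe set at 0.10. The calls of Rab21 and Rab40c were each also lost in 4 of the 15 other settings tried, averaged probe sets among them.

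Rab6b, the neuronal Rab6 paralogue, read 6894 to 8394 in ERalphaKO-labelled arrays (median 7419) against 8360 to 10280 in ERbetaKO-labelled arrays (median 8930). The ranges met only at their ends. The difference was -0.28 ± 0.08 (adjusted p = 0.0261). It turned to 0.06 (adjusted p = 0.663) when the probe sets of a gene were averaged, since the 3 others above the filter gave -0.04, 0.36 and 0.20. The call was also lost without ERalphaKO-labelled female 3, male 1 or male 2 or ERbetaKO-labelled male 2 or male 3, with adjusted p up to 0.0653.

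Sex, taken from the sample titles and not checked with sex-linked genes here, made no called difference in the family. Female minus male, averaged over genotypes, gave 0 of 50 calls, against 0.0306% of all genes. At an unadjusted p under 0.05 there were 5 of 50 (10%), against 4.57% of all genes. The interaction of sex with genotype gave 0 calls for either knockout label, as it did over all 13072 genes (0%). At an unadjusted p under 0.05 there were 4 of 50 (8%) in each, against 5.15% of all genes for ERalphaKO-labelled and 3.38% for ERbetaKO-labelled brains. The interactions had a lowest adjusted p of 0.855 for ERalphaKO-labelled and 1.00 for ERbetaKO-labelled brains.

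Many Rab genes are read by several probe sets, and these often disagreed. Of the 59 GTPases 38 had more than 1 and 21 had 1. In ERalphaKO-labelled brains against WT, 19 of the 32 genes with more than 1 probe set above the filter had differences of both signs (59.4%, against 53.2% of all such genes). Of 107 member probe sets above the filter, 6 were called higher and 5 lower when adjusted over all 23079 named probe sets, of which 7.73% were called. In ERbetaKO-labelled brains 3 were higher and 4 lower (background 7.36%). Between the lines 6 were higher and 13 lower (background 14.5%).

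The calls on dimmer probe sets concern central Rabs, picked here after their values were seen. The second probe set of Rab1a read 2219 to 2625 in ERalphaKO-labelled arrays against 1742 to 1994 in WT. The groups did not overlap, and the difference was 0.37 ± 0.06 (limma adjusted p = 0.00251), where the brightest Rab1a probe set gave 0.01. That of Rab7 read 2373 to 3429 against 2113 to 2419 in WT, a difference of 0.38 ± 0.08 (adjusted p = 0.0110), where the brightest gave -0.10. Dimmer probe sets of Rab2b (0.45 ± 0.10), Rab14 (0.41 ± 0.11) and Rab18 (0.33 ± 0.09) were called higher too, with adjusted p of 0.0144, 0.0283 and 0.0334. The brightest of these genes gave 0.03, -0.05 and -0.04. Rab2b and Rab18 act at the Golgi and endoplasmic reticulum and Rab14 between endosomes and the Golgi. In ERbetaKO-labelled brains dimmer probe sets of Rab2b (0.26 ± 0.07) and Rab6a (0.32 ± 0.09) were called higher against WT, with adjusted p of 0.0382 and 0.0433. The brightest gave 0.06 and -0.04. Between the lines Rab14 had probe sets called both ways, at 0.57 ± 0.10 and -0.28 ± 0.08 (adjusted p = 0.00249 and 0.0372). Which transcript ends these probe sets read was not analysed here.

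**Figure D3:**
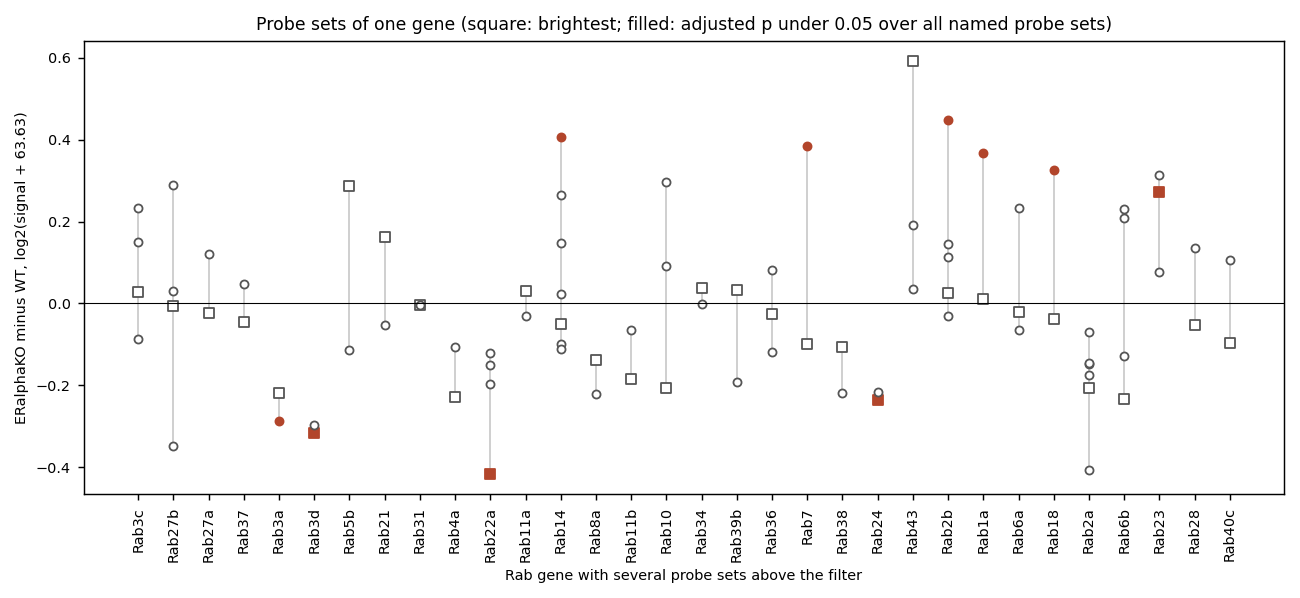
Difference of ERalphaKO-labelled brains from WT on the log2(signal + 63.63) scale (y axis) for every probe set above the filter of the 32 Rab genes with more than 1 (x axis). Squares are the brightest probe set of a gene, circles the others, and filled symbols passed an adjusted p of 0.05 over all named probe sets. Rab1a, Rab7, Rab2b, Rab14 and Rab18 each have a filled circle above 0 and a square near 0.

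The regulators and effectors of Rabs were taken from a list of 142 genes, of which 132 were found by symbol and 121 tested. In ERalphaKO-labelled brains 0 rose and 6 fell against WT (4.96%, near the background of 6.7%), while the median was 0.02. Genes that this list placed with the effectors gave 4 of the 6, Syn1 and Plekhm2 among them. Rph3a, rabphilin, an effector of Rab3 on synaptic vesicles, read 3944 to 5372 in ERalphaKO-labelled arrays (median 4397) against 5977 to 8839 in WT (median 6510). No values overlapped, and the difference was -0.58 ± 0.11 (adjusted p = 0.00751). Syn1, synapsin I of synaptic vesicles, read 4468 to 6032 in ERalphaKO-labelled arrays (median 4776) against 6099 to 7443 in WT (median 6597). These did not overlap either, with a difference of -0.41 ± 0.10 (adjusted p = 0.0210).

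Rab11fip4, an effector of Rab11, fell by 0.27 (adjusted p = 0.0281) and Plekhm2, an adaptor between lysosomes and kinesin, by 0.34 (adjusted p = 0.0407) on the log2 scale. Madd, the exchange factor that loads Rab3, read 1347 to 1774 in ERalphaKO-labelled arrays (median 1554) against 1824 to 2395 in WT (median 1894). The difference was -0.32 ± 0.09 (adjusted p = 0.0374). Tbc1d9b, a GTPase-activating protein with a TBC domain, fell by 0.35 (adjusted p = 0.0186). The neuron, endothelial and microglial markers of these arrays are given above, and their part in these differences was not tested.

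Of the 6 partner calls in ERalphaKO-labelled brains 0 held on the arrays with Pcp2 above 500. That fit holds fewer arrays, and the share of all genes called in it is not given here. With averaged probe sets Madd was at -0.09 (adjusted p = 0.459), Rab11fip4 at -0.06 (adjusted p = 0.779) and Rph3a at -0.39 (adjusted p = 0.0912). Of the 12 arrays left out in turn, 10 ended the call of Plekhm2 (adjusted p up to 0.0872), 7 that of Madd (up to 0.0873), 7 that of Rab11fip4 (up to 0.0718) and 4 that of Syn1 (WT male 3 and ERalphaKO-labelled female 3, male 1 and male 2, up to 0.0582). The calls of Rph3a and Tbc1d9b held without any single array.

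In ERbetaKO-labelled brains 2 partners rose and 5 fell (5.79%, against 7.5% of all genes). Rph3a read 3447 to 5093 (median 4317), again below all WT values, with a difference of -0.67 ± 0.11 (adjusted p = 0.00340). Plekhm2 and Tbc1d9b differed by -0.45 ± 0.09 and -0.31 ± 0.08 (adjusted p = 0.0101 and 0.0276). The remaining falls were in Tbc1d22b, a Golgi TBC protein (-0.54 ± 0.12, adjusted p = 0.0156), and Rgp1, a subunit of the Rab6 exchange factor (-0.31 ± 0.09, adjusted p = 0.0374). Dennd5b, a DENN-domain exchange factor, rose by 0.35 ± 0.07 (adjusted p = 0.00555), and Sytl2, a Rab27 effector, by 0.40 ± 0.11 (adjusted p = 0.0311). Both lines were set against the same WT arrays. Madd differed here by -0.09 ± 0.09 and Syn1 by -0.19 ± 0.10, both short of the threshold. Tbc1d9b was at -0.12 with averaged probe sets (adjusted p = 0.212). Of the 12 arrays left out in turn, 9 ended the call of Rgp1 (adjusted p up to 0.0812), 7 that of Sytl2 (up to 0.0821) and 5 that of Tbc1d9b (up to 0.0744), and the other 4 calls held. With the Actb ratio as a covariate 2 of the 121 partners were called. The share of all genes called in that fit is not given here.

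Among partners, 0 of 6 prenylation and membrane extraction genes were called in either line against WT. Between the lines 10 partners were higher and 7 lower in ERalphaKO-labelled brains (14%, against 15.4% of all genes). By class, 4 exchange factors were higher and 1 lower, and 3 GTPase-activating proteins were higher and 0 lower. Of the prenylation and membrane extraction genes 1 was higher, and of the effectors 2 were higher and 6 lower. Sytl2 (-0.45 ± 0.11, adjusted p = 0.0121) and Rab11fip4 (-0.33 ± 0.07, adjusted p = 0.00690) were among the lower.

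**Figure D4:**
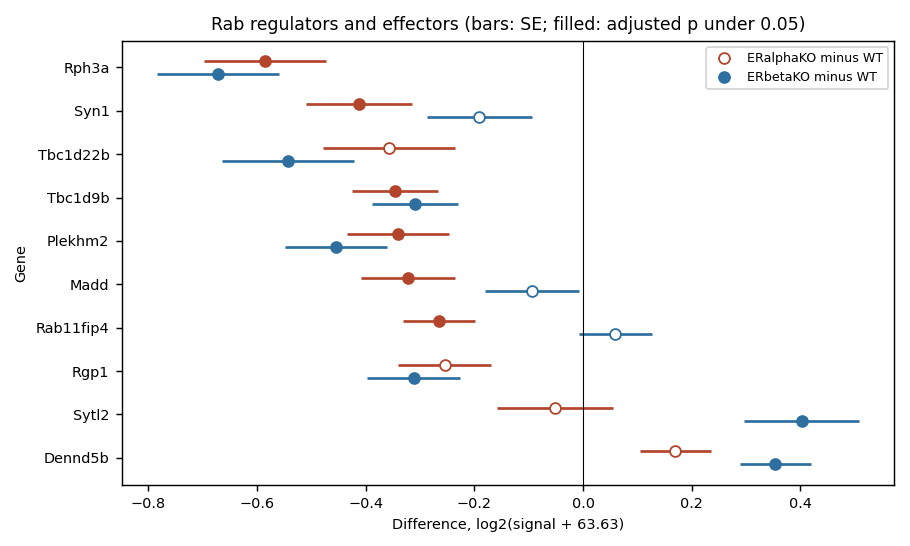
Difference from WT on the log2(signal + 63.63) scale (x axis) of the 10 Rab regulators and effectors called in at least 1 knockout line (y axis), with the SE as bars. ERalphaKO-labelled brains are red, ERbetaKO-labelled brains blue, and filled points passed an adjusted p of 0.05. Rph3a, Tbc1d9b and Plekhm2 are filled and below 0 in both.

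The family differed widely in spread. The within-group SD on the log2 scale ran from 0.068 (Rab8a) to 0.559 (Rab3b), with a median of 0.133. The 4 genes after Rab3b were Rab40b (0.501), Rab43 (0.41), Rab13 (0.386) and Rab26 (0.378). Rab40b, a ubiquitin ligase adaptor, read 1436 to 1828 on the 7 arrays with Pcp2 at 500 or less and 656 to 1449 on the other 11. Rab26, of secretory granules and synaptic vesicles, read 427 to 605 and 279.7 to 542 on the same arrays, and Rab3b read 881 to 1793 and 428 to 1392. Rab13, of tight junctions, read 209.7 to 402 and 315 to 738. The part of tissue composition in these spreads was not tested. Standard errors against WT were accordingly wide, at 0.25 for Rab40b and 0.28 for Rab3b, and neither was called in any comparison.

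**Figure D5:**
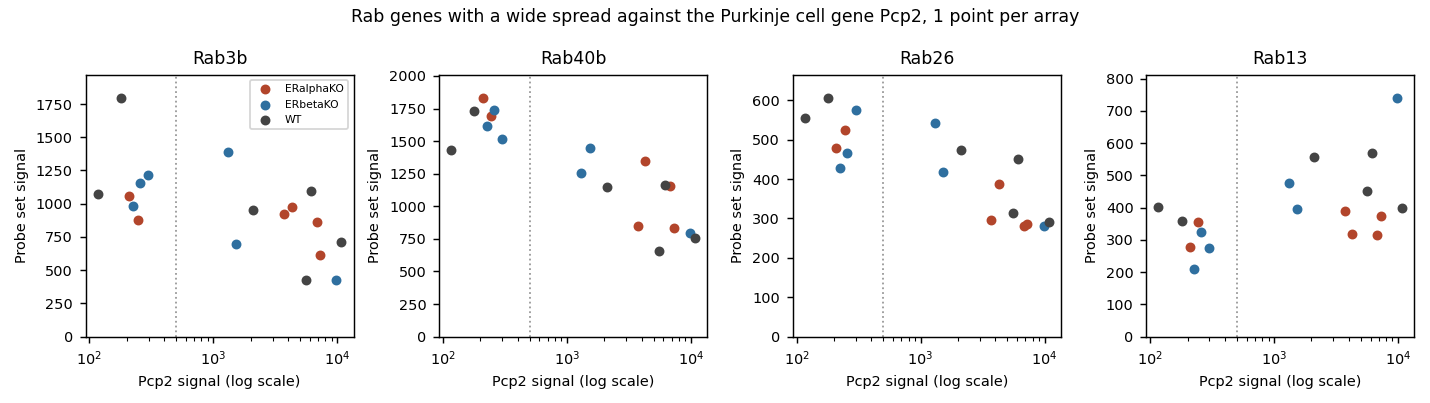
Probe set signal (y axes, linear) of Rab3b, Rab40b, Rab26 and Rab13 against the signal of the Purkinje cell gene Pcp2 (x axes, log scale), 1 point per array, coloured by labelled genotype, with a dotted line at a Pcp2 signal of 500. The 7 arrays left of the line read 1436 to 1828 for Rab40b, and each genotype has arrays on both sides.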

How the data were processed

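RNA from whole brain was hybridised to Affymetrix mouse arrays, 18 in all, 6 per genotype. The deposited values are linear intensities per probe set, made with MAS5 per the submitters' processing notes (version not given in the sources used here). In each column the 2% trimmed mean was 500, so the authors had scaled the arrays to one target. Symbols came from the platform annotation, updated through RefSeq GRCm38.p6. The number of arrays limits the precision.

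Before taking log2, 63.63 was added to each signal, which is the 25th percentile of all values. The brightest probe set stood for its gene, and 13072 genes passed the filter, a mean log2 level of 7.58 (40th percentile). Using limma 3.58.1 (R 4.3.3), a mean per sex and genotype was estimated, the variance following intensity, on 12 residual degrees of freedom, and adjusted p-values follow Benjamini and Hochberg. Genotype differences average both sexes. Differences understate changes of dim genes. Probe sets were also fitted together, adjusted over all 23079 named ones above the filter.

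Members and gene lists were chosen with earlier results of these data known. Named were all Rab genes past the threshold, 12 textbook Rabs, members below the filter, and in each class of partner up to 4 past the threshold with the smallest adjusted p. Replicate numbers are not said to mark shared litters or days. The alternatives were other pseudocounts, scalings and filters, averaged probe sets, a replicate block, array weights, no trend, a fit of the compared groups alone, a cerebellar score, arrays with Pcp2 above 500, the Actb ratio as a covariate, and each array left out. Figures were drawn with matplotlib 3.10.9.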

Additional observations from a re-analysis of the deposited data

Results flagged for a closer look

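Among 81 groups of 6 arrays, from 27 Rab genes, 5 held 1 array far from the rest, by the size of its gap to the nearest array against the group's range (Dixon's 95% critical value). Chance gives about 1 in 20 groups. In ERbetaKO-labelled brains Rab1b read 2441.1 in male 3, above the next value of 2085.3, and without that array Rab1b was called against WT (-0.22, limma adjusted p = 0.0336). In WT brains Rab23 read 519.7 in female 3, below the next value of 652.6, and Rab43 read 59.1 in female 2, below 336.8. WT male 3 stood apart in both Rab5a, at 4576.4 above 3848.1, and Rab6a, at 9585.3 above 7150.9. That array was among those with Pcp2 at 500 or less. The cause of these values was not tested.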

How the results depend on the processing

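Members called against WT in ERalphaKO-labelled brains (5) numbered 2 after median centring, 2 without the filter, 3 without the intensity trend, 2 with the replicate block, 2 with the Actb ratio as a covariate and 0 on the arrays with Pcp2 above 500 (1 to 6 with an array left out). In ERbetaKO-labelled brains (3) they numbered 7 after median centring, 6 with array weights, 1 on the Pcp2 arrays (Rab5c, which is none of the 3) and 0 with the Actb ratio (2 to 4). Between the lines (7) only the Actb ratio moved the count past 1.5 times, to 3 (4 to 9). Sex and both interactions gave 0 in every fit run. Partners called in ERalphaKO-labelled brains (6) numbered 12 with array weights, 11 with the cerebellar score and 0 on the Pcp2 arrays (2 to 8). In ERbetaKO-labelled brains (7) they numbered 13 after quantile normalization, 23 after median centring, 13 with averaged probe sets, 13 with array weights, 15 with the cerebellar score, 4 on the Pcp2 arrays and 2 with the Actb ratio (4 to 10). The share of all genes called in each of these fits is not given here. The counts therefore do not show whether members or partners moved more than other genes. Rab6b between the lines turned to 0.0584 with averaged probe sets. Median centring moved the median of all genes in ERbetaKO-labelled brains against WT to -0.10, beside 0.01 as reported. The Pcp2 fits hold 11 arrays, with ERbetaKO-labelled female 1 as the only female of its label, and the other causes were not tested. Arrays with the same number and sex in different genotypes deviated together with r from -0.40 to 0.43 (median 0.07 over 18 pairs). For arrays of the same sex with other numbers the median was -0.03. Whether the numbers mark shared litters or days cannot be read from these values, since differences in cerebellum between arrays enter them too.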
